A study of Mus musculus with 9 samples.

Results

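Focal adhesions are the sites at which integrins in the plasma membrane are tied to actin filaments inside the cell. Talin binds the integrin tail and actin, vinculin strengthens the talin-actin link, α-actinins and filamin crosslink the filaments, LIM-domain adaptors such as paxillin and zyxin dock further proteins, and focal adhesion kinase with its substrate p130Cas signals from the site. In cultured fibroblasts these plaques carry the tension by which the cell holds on to its dish, and several of the proteins are known to be handled differently when that tension changes. The genes described here encode 10 intracellular core components of this structure: Tln1 (talin 1), Vcl (vinculin), Flna (filamin A), Actn1 and Actn4 (α-actinins), Pxn (paxillin), Zyx (zyxin), Lpp (a relative of zyxin), Ptk2 (focal adhesion kinase) and Bcar1 (p130Cas). They were picked by symbol from the 35275 genes of the deposited table by no rule on their measured values, although earlier results of these data were known. All 10 had a row, and all 10 were among the 13082 genes that passed the filter on low counts.

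The libraries came from wild type mouse embryonic fibroblasts (MEFs) of strain C57Bl/6, grown in DMEM with fetal bovine serum to near confluence. One group stayed in iso-osmolar medium as the control, a second received medium with 200 mM added sucrose (500 mOsm, low-intensity hyperosmotic stress) and the third received 300 mM added sucrose (600 mOsm, high intensity). Treatment lasted 3 h, and poly-A RNA was sequenced as 3 libraries per group, 9 in all. The comparisons ask how transcript levels respond to each intensity and how the intensities differ from each other. No genotype or other agent differed between the groups, and no source used here gives the number of MEF isolates. Nothing in the labels says that the libraries of a group came from separate cultures, so the p-values measure the spread between these libraries, which may be technical.

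Each library held 21716042 to 26740832 counts on genes, of which the 10 genes took 0.668% to 0.706%. A count of 3, taken as the floor of detection, equals 0.112 to 0.138 CPM (counts after scaling of the libraries by TMM), a limit that covers counting error only, and every value of the 10 genes lay far above it. The fibroblast markers were present, with a summed level of 4320 to 4960 FPKM (fragments scaled to gene length and library total) over 8 of 8 genes. Most markers of other cell types were at or near 0, Krt5 had no count in any library, and Cd68 averaged 1.05 to 1.32 FPKM. The epithelial cadherin gene Cdh1 and the endothelial gene Pecam1 were higher at 500 mOsm, which took the summed epithelial list (3 genes) from at most 0.00918 FPKM in iso-osmolar medium to 0.749 to 0.835 FPKM, against 0.0324 to 0.039 FPKM at 600 mOsm. The summed endothelial list (3 genes) went from 0.202 to 0.246 FPKM in iso-osmolar medium to 3.26 to 3.72 FPKM at 500 mOsm and 0.55 to 0.901 FPKM at 600 mOsm, while Cdh5 averaged 0.14, 0.143 and 0.187 FPKM. The part of these transcripts in the results for adhesion genes was not tested. The osmolyte genes Akr1b3, Slc5a3 and Slc6a6, textbook targets of hypertonicity, were all higher at 500 mOsm than in the controls, by 1.37, 1.22 and 0.56 on the log2 scale (adjusted p = 7.03e-10, 0.000104 and 1.47e-06 by edgeR). At 600 mOsm against iso-osmolar medium Slc5a3 was lower (-0.79, adjusted p = 0.00451 by edgeR) and the other two did not pass the test, and all 3 were lower at 600 than at 500 mOsm. The 10 most abundant genes took 6.20% to 6.31% of counts in the iso-osmolar and 500 mOsm libraries and 7.02% to 7.81% at 600 mOsm. In bulk RNA of this kind, fewer cells of a type and less RNA per cell cannot be told apart.

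The promoters of the genes were read from mouse RefSeq sequences of build GRCm38.p6, in windows of 250 bases before to 50 bases after the start. Windows were found for 8 of the 10 genes, all but Pxn and Ptk2, with 10 windows in all. The searched motifs were the CArG box bound by serum response factor, GGAATG bound by TEAD factors, TGANTCA bound by AP-1 and GGGCGG bound by Sp factors, each on both strands, and no motif contains another. Stretches of 3 windows are printed because Vcl is among the genes that fell at 600 mOsm, Zyx is the gene that fell at 500 mOsm and Bcar1 is the gene that rose there. The capitals mark motif matches, and the letters run 5′ to 3′ on the strand of the gene.
Vcl, chr14:20929158-20929293, plus strand, 240 to 105 bases before the start: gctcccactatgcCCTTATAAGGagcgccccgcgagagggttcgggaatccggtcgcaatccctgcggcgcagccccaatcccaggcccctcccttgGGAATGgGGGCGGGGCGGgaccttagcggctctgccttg
Zyx, chr6:42349678-42349827, plus strand, 150 to 1 bases before the start: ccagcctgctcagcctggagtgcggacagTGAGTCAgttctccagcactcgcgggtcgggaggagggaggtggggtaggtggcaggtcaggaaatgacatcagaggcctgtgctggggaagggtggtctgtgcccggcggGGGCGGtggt
Bcar1, chr8:111743990-111744078, minus strand, 229 to 141 bases before the start: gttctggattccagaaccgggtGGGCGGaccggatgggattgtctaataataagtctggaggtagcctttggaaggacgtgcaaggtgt

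The capitals in the Vcl stretch mark in turn the CArG box, GGAATG and a run of overlapping GGGCGG matches. Among the 8 genes with a window, Vcl alone had a CArG box, at -227 from the start. This was 1 of the 10 windows, and 1.63% of all 32851 mouse windows hold one. A match to GGAATG was found in 4 of the 10 windows, from 4 genes (Vcl, Flna, Actn4 and Lpp), and in 14.7% of all windows. TGANTCA was found in 2 of the 10 windows, for Zyx, as printed, and for Actn4, and in 7.81% of all windows. GGGCGG was found in 7 of the 10 windows, from 6 genes, and in 35.7% of all windows. These matches describe letters in short windows and say nothing of whether a factor binds there.

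Per length of gene, the 10 genes spanned a wide range of levels in iso-osmolar medium. Flna was the most abundant, at 339.3 FPKM ± 6.12 (SD, n = 3), followed by Zyx at 323.5 ± 12.3 and Bcar1 at 223.1 ± 12. Actn1 (159.4 FPKM), Tln1 (103.1), Actn4 (98.71), Vcl (61.64) and Pxn (45.18) came next. Ptk2, at 12.2 FPKM ± 0.461, and Lpp, at 4.041 ± 0.567, were the lowest. The libraries of the neighbours Flna and Zyx, and of Tln1 and Actn4, overlapped in FPKM, and the other steps of the order exceeded the SDs of the genes concerned.
The order was the same under both intensities except for 1 exchange: Bcar1 stood above Zyx, although their ranges over libraries overlapped at 600 mOsm. The ratio of Zyx to Bcar1 in FPKM was 1.47, 1.43 and 1.45 in the iso-osmolar libraries, 0.821, 0.836 and 0.941 at 500 mOsm, and 0.953, 0.942 and 0.990 at 600 mOsm. It was thus above 1 in all 3 control libraries and below 1 in all 6 stressed ones. The summed level of the 10 genes was 1370 FPKM ± 20.9 in the controls, 1354 ± 20.9 at 500 mOsm and 1265 ± 18.3 at 600 mOsm (SD, n = 3 each).

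**Figure D1:**
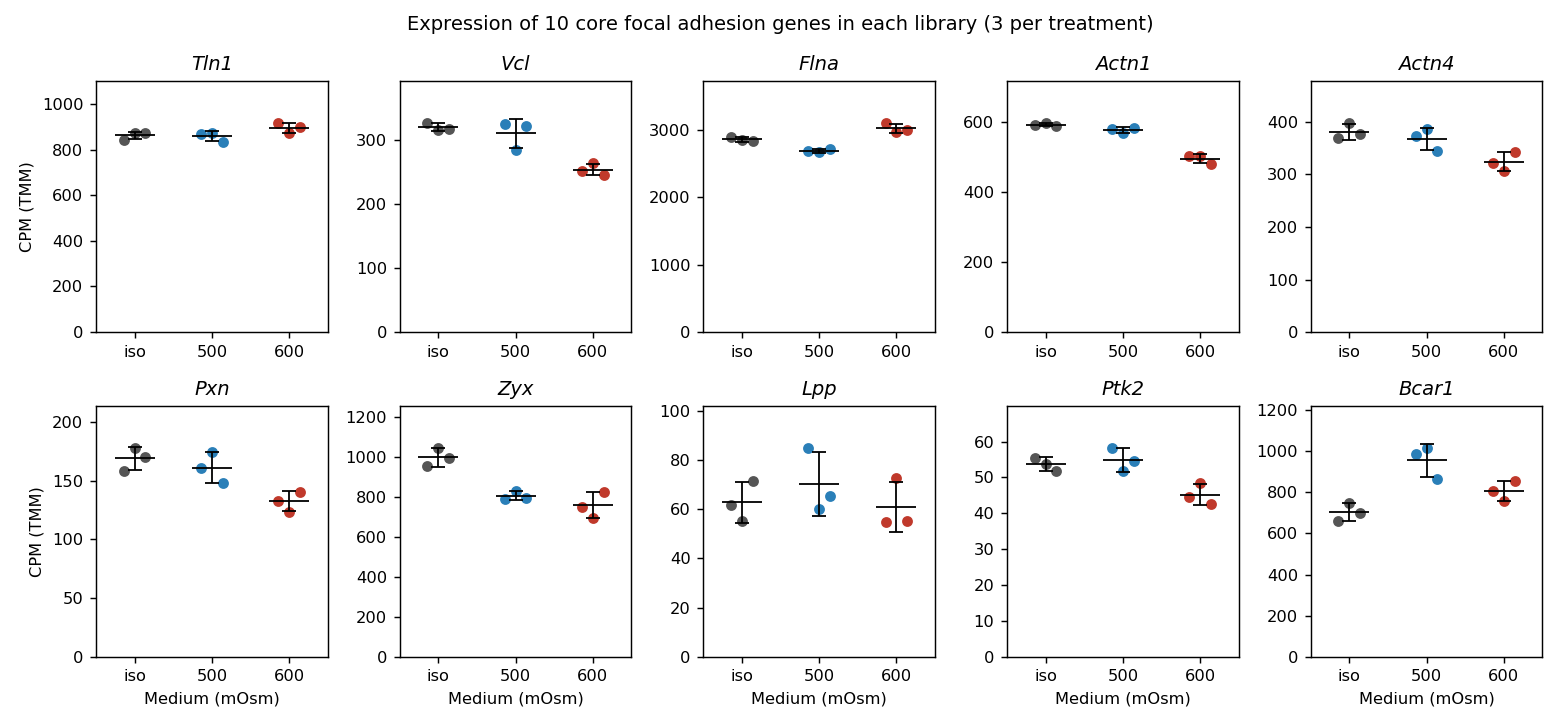
CPM (counts after scaling of the libraries by TMM) of each of the 10 genes on a linear axis from 0, by medium, with 1 point per library (replicates 1 to 3 from left to right) and a bar and whiskers for the mean and SD of 3 libraries. Vcl, Actn1, Actn4, Pxn and Ptk2 lie close together at iso-osmolar and 500 mOsm and lower at 600 mOsm, Zyx is lower at both intensities, and Bcar1 peaks at 500 mOsm.

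At low intensity, 8 of the 10 genes did not pass the test. Bcar1 rose and Zyx fell at 500 mOsm against iso-osmolar medium, so that 1 gene was higher and 1 was lower. Of all 13082 genes tested, 13.2% were higher and 14.8% lower in this comparison, and 28.0% passed in either direction. The libraries of the 2 groups did not overlap in CPM for 4 of the 10 genes, against 40.9% of all genes. The median log2 fold change of the 10 genes was -0.04, and that of all genes was 0.01. These counts depended on the processing: when gene length and GC content were corrected together in each library, 6 of the 10 genes were lower and 1 higher, with Tln1, Flna, Actn1, Actn4 and Pxn past the threshold as lower besides Zyx (log2 fold changes of these 5 genes -0.21, -0.25, -0.12, -0.18 and -0.22). The medians were then -0.15 for the 10 genes and -0.06 for all genes. Calls over all genes moved as well, to 3529 lower and 1583 higher in place of 1931 and 1728.

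At high intensity 7 of the 10 genes passed the test. Vcl, Actn1, Actn4, Pxn, Zyx and Ptk2 were lower at 600 mOsm than in the controls and Bcar1 was higher, which makes 6 lower and 1 higher of 10. The share of all genes that were lower was 20.0%, the share that were higher was 15.1%, and 35.1% passed in either direction. The groups did not overlap for 8 of the 10 genes, against 48.5% of all genes. The median log2 fold change was -0.24 over the 10 genes and 0.01 over all genes, and the 7 differences that passed lay between 0.19 and 0.40 in size on the log2 scale. With length corrected, and with length and GC content corrected, 5 of the 10 genes were lower and 3 higher, and the median of the 10 was -0.17 and -0.12, beside 0.02 for all genes in both cases. Over all genes 2224 were lower and 1763 higher with length corrected, and 2573 and 2317 with GC content corrected as well. Without correction these counts were 2617 and 1977.

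Between the intensities, Vcl, Actn1, Actn4, Pxn, Ptk2 and Bcar1 were lower at 600 than at 500 mOsm and Flna was higher, again 6 lower and 1 higher of 10. Of all genes, 17.2% were lower, 11.9% were higher and 29.1% passed in either direction. The groups did not overlap for 7 of the 10 genes, against 41.5% of all genes. The median log2 fold change was -0.21 for the 10 genes and 0.01 for all genes, which became -0.12 and 0.09 with gene length corrected, and -0.08 and 0.09 with length and GC content corrected. The 3 comparisons share libraries, so they are not independent of each other. When gene length was corrected in each library, 1 of the 6 genes (Actn1) remained past the threshold as lower and 3 genes (Tln1, Flna and Lpp) were higher, and with length and GC content corrected together 4 were lower and 3 higher. Over all genes 1511 were lower and 2678 higher with length corrected, and 1757 and 3603 with GC content corrected as well. Without correction these counts were 2250 and 1560.

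**Figure D2:**
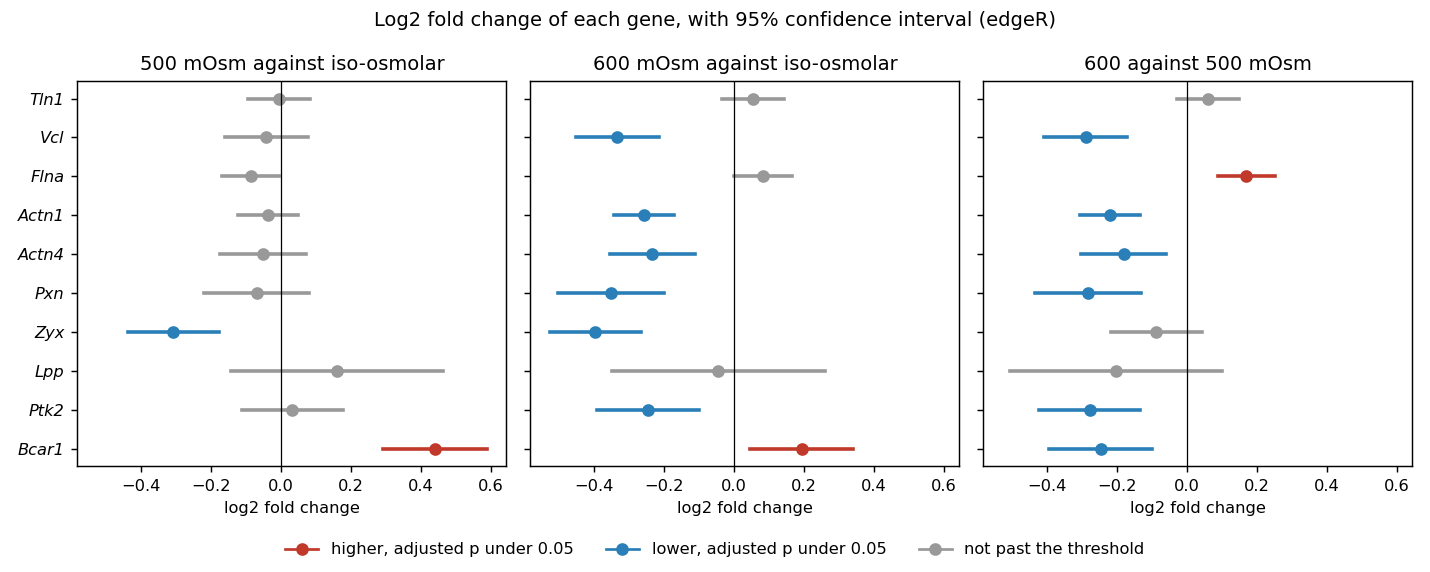
Log2 fold change (horizontal axis) of each of the 10 genes in the 3 comparisons, with its 95% confidence interval from edgeR's quasi-likelihood fit. Bcar1 and Zyx are the genes past the threshold at 500 mOsm, while at 600 mOsm 6 genes lie to the left of 0 past the threshold in each comparison.

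Talin 1 and vinculin together carry force from integrins to actin. Vcl fell at 600 mOsm, and Tln1 did not pass the test in any comparison. Tln1 (ENSMUSG00000028465, chr4:43531519-43562691 in mm10, minus strand) stayed between 833.5 and 916.6 CPM in all 9 libraries, and the groups overlapped in every comparison. Its log2 fold change was -0.01 at 500 mOsm and 0.05 at 600 mOsm against iso-osmolar medium, with 95% confidence intervals of -0.09 to 0.08 and -0.03 to 0.14, and neither difference passed the test (adjusted p = 0.942 and 0.329 by edgeR). Vcl (ENSMUSG00000021823, chr14:20929433-21033673, plus strand) was counted at 327.5, 316.3 and 318.5 CPM in iso-osmolar medium, 326, 285.4 and 322.7 CPM at 500 mOsm, and 252.5, 264.5 and 246.4 CPM at 600 mOsm. All 3 high-intensity libraries were below all 6 others, and replicate 2 was the lowest of the 500 mOsm libraries. Vcl fell by 20.7% at 600 mOsm against iso-osmolar medium (log2 fold change -0.33, SE 0.0549, adjusted p = 0.000522 by edgeR) and by 18.3% against 500 mOsm (log2 fold change -0.29, adjusted p = 0.00158). At 500 mOsm its difference from iso-osmolar medium was -0.04 (95% confidence interval -0.16 to 0.08, adjusted p = 0.621).
The ratio of Tln1 to Vcl in FPKM was 1.60 to 1.71 in iso-osmolar medium, 1.61 to 1.91 at 500 mOsm and 2.05 to 2.27 at 600 mOsm. Vcl shares 2090 exon bases with Ap3m1 on the opposite strand, and whether counting used the strand is not given in the sources used here. Ap3m1 held 8.64% as many counts as Vcl and passed the test in no comparison. With gene length corrected, and with length and GC content corrected, the fall of Vcl at 600 mOsm against iso-osmolar medium was -0.21 and -0.15 (adjusted p = 0.00861 and 0.00838 by edgeR), and against 500 mOsm it was -0.13 and -0.08 and did not pass (adjusted p = 0.0737 and 0.111). Under the same corrections Tln1 was past the threshold as higher at 600 mOsm, by 0.26 and 0.16 against iso-osmolar medium (adjusted p = 0.0102 and 0.0114) and by 0.34 and 0.37 against 500 mOsm (adjusted p = 0.00176 and 1.48e-05).

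Among the actin crosslinkers, filamin A was higher at 600 than at 500 mOsm and both α-actinins were lower. Flna (ENSMUSG00000031328, chrX:74223461-74249820, minus strand) was counted at 2893, 2846 and 2827 CPM in iso-osmolar medium, 2679, 2664 and 2719 CPM at 500 mOsm, and 3101, 2972 and 2996 CPM at 600 mOsm. The 3 groups did not overlap, with 500 mOsm lowest and 600 mOsm highest. The rise from 500 to 600 mOsm passed the test (12.5%, log2 fold change 0.17, SE 0.038, adjusted p = 0.00485 by edgeR), and the differences from iso-osmolar medium did not (-0.09 at 500 mOsm with adjusted p = 0.11, and 0.08 at 600 mOsm with adjusted p = 0.113). With length corrected, and with length and GC content corrected, the rise of Flna from 500 to 600 mOsm was 0.45 and 0.49, and that against iso-osmolar medium was 0.29 and 0.24 and passed (adjusted p = 0.00589 and 0.00187). Flna made up 24.77% of the summed FPKM of the 10 genes in the controls, 23.55% at 500 mOsm and 28.01% at 600 mOsm.
Actn1 (ENSMUSG00000015143, chr12:80167542-80260371, minus strand) had 593, 598.1 and 588.3 CPM in iso-osmolar medium, 580.2, 568.5 and 584.1 CPM at 500 mOsm, and 503, 504.1 and 480.6 CPM at 600 mOsm. Every 600 mOsm library was below every other library. Actn1 fell by 16.4% against iso-osmolar medium (log2 fold change -0.26, SE 0.0394, adjusted p = 0.000302 by edgeR) and by 14.1% against 500 mOsm (-0.22, adjusted p = 0.00108). Actn4 (ENSMUSG00000054808, chr7:28893248-28962340, minus strand) had 369.1, 398 and 376 CPM in iso-osmolar medium, 373.7, 385.5 and 343.8 CPM at 500 mOsm, and 322, 307.3 and 342.7 CPM at 600 mOsm. Its 600 mOsm libraries were again the 3 lowest, although the highest of them lay just below the lowest library at 500 mOsm. Actn4 fell by 15.0% against iso-osmolar medium (-0.23, SE 0.0565, adjusted p = 0.0067) and by 11.9% against 500 mOsm (-0.18, SE 0.0565, adjusted p = 0.0286). The difference of Actn4 between the intensities lost its call when replicate 1 or 2 of either intensity was left out (adjusted p = 0.0846 to 0.13 by edgeR), and likewise with length corrected (-0.10, adjusted p = 0.265) and with length and GC content corrected (-0.07, adjusted p = 0.183). The difference of Actn1 between the intensities was -0.14 and -0.11 under these corrections and passed (adjusted p = 0.0364 and 0.031). The ratio of Actn1 to Actn4 in FPKM ran from 1.45 to 1.76 over the 9 libraries, and its ranges overlapped between the groups.

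The LIM-domain adaptors, which carry zinc-binding modules that dock partner proteins, comprised 2 genes that fell and 1 that did not pass. Zyx (ENSMUSG00000029860, chr6:42349828-42360146, plus strand) had 953.6, 1048 and 995.8 CPM in iso-osmolar medium, 791.6, 832 and 797.1 CPM at 500 mOsm, and 752, 697.3 and 827.2 CPM at 600 mOsm. All 6 stressed libraries were below the 3 controls, and the intensities overlapped. Zyx fell by 19.2% at 500 mOsm (log2 fold change -0.31, SE 0.0601, adjusted p = 0.00175 by edgeR) and by 24.1% at 600 mOsm (-0.40, SE 0.0602, adjusted p = 0.00029), and the intensities differed by -0.09 (95% confidence interval -0.22 to 0.04, adjusted p = 0.304).
Pxn (ENSMUSG00000029528, chr5:115506676-115555987, plus strand) had 158.7, 178.4 and 170.5 CPM in iso-osmolar medium, 161.1, 174.7 and 148 CPM at 500 mOsm, and 133.1, 123.8 and 140.6 CPM at 600 mOsm. The control and 500 mOsm libraries overlapped, and all 600 mOsm libraries were lower. Pxn fell by 21.7% at 600 mOsm against iso-osmolar medium (-0.35, SE 0.0697, adjusted p = 0.00191 by edgeR) and by 17.8% against 500 mOsm (-0.28, adjusted p = 0.00858). With length corrected, the latter difference of Pxn was -0.21 and did not pass (adjusted p = 0.05 after rounding, by edgeR). It was -0.18 and passed with length and GC content corrected (adjusted p = 0.00352).
Lpp (ENSMUSG00000033306, chr16:24393350-24992576, plus strand) is the longest of the 10 genes in the table, at 15647 bases, and varied most between libraries of a group. It ranged over 55.19 to 71.72 CPM in iso-osmolar medium, 60.17 to 85.14 CPM at 500 mOsm and 55 to 72.89 CPM at 600 mOsm, and the groups overlapped in every comparison. Its log2 fold changes were 0.16 at 500 mOsm, -0.05 at 600 mOsm and -0.20 between the intensities, each with an SE of 0.14 (adjusted p = 0.452, 0.831 and 0.309 by edgeR), and the last has a 95% confidence interval of -0.51 to 0.10. That difference turned to 0.24 with gene length corrected (adjusted p = 0.0273).

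The kinase and its scaffold sit at the signalling end of the adhesion: focal adhesion kinase phosphorylates p130Cas together with Src. Ptk2 (ENSMUSG00000022607, chr15:73205105-73423191, minus strand) had 55.51, 53.71 and 51.65 CPM in iso-osmolar medium, 58.33, 51.68 and 54.46 CPM at 500 mOsm, and 44.49, 48.49 and 42.58 CPM at 600 mOsm. Control and 500 mOsm libraries overlapped, and the 3 libraries at 600 mOsm were the lowest. Ptk2 fell by 15.8% at 600 mOsm against iso-osmolar medium (log2 fold change -0.25, SE 0.0672, adjusted p = 0.0128 by edgeR) and by 17.6% against 500 mOsm (-0.28, SE 0.067, adjusted p = 0.00743). Without replicate 3 at 600 mOsm, the difference from iso-osmolar medium was -0.21 (adjusted p = 0.0565). That difference of Ptk2 also lost its call with length corrected (-0.17, adjusted p = 0.0634 by edgeR) and with length and GC content corrected (-0.10, adjusted p = 0.157). Between the intensities the value was -0.17 with length corrected, which did not pass (adjusted p = 0.0562), and -0.14 with length and GC content corrected (adjusted p = 0.0432).
Bcar1 (ENSMUSG00000031955, chr8:111710485-111743849, minus strand) had 661.2, 750.3 and 701.7 CPM in iso-osmolar medium, 985.6, 1018 and 865.8 CPM at 500 mOsm, and 806.3, 756.7 and 853.9 CPM at 600 mOsm. The 3 groups did not overlap, with the controls lowest and 500 mOsm highest, and the gaps were narrow on both sides of the 600 mOsm group. Bcar1 rose by 35.8% at 500 mOsm (log2 fold change 0.44, SE 0.0683, adjusted p = 0.000309 by edgeR) and by 14.4% at 600 mOsm against iso-osmolar medium (0.19, SE 0.0682, adjusted p = 0.0432). It was lower at 600 than at 500 mOsm by a log2 fold change of -0.25 (SE 0.0681, adjusted p = 0.016). The rise at 600 mOsm lost its call without iso-osmolar replicate 1 or 3, without 500 mOsm replicate 1 and without 600 mOsm replicate 1 or 3 (adjusted p = 0.0508 to 0.16), and the difference between the intensities lost it without replicate 1 or 2 of either intensity (adjusted p = 0.0532 to 0.0732). With length and GC content corrected, the rise of Bcar1 at 600 mOsm was 0.08 and did not pass (adjusted p = 0.0727 by edgeR). The difference between the intensities was -0.18 with length corrected, which did not pass (adjusted p = 0.0575), and -0.17 with GC content corrected as well (adjusted p = 0.000784).

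Several of the 10 genes have paralogs that encode related adhesion proteins, of which 13 of the 19 listed passed the filter. Of these 13, 3 were higher and 2 lower at 500 mOsm (23.1% and 15.4%, beside 13.2% and 14.8% of all genes). At 600 mOsm against iso-osmolar medium 1 was higher and 2 lower (7.69% and 15.4%, beside 15.1% and 20.0%). Between the intensities 0 were higher and 2 lower at 600 mOsm (0% and 15.4%, beside 11.9% and 17.2%). Their median log2 fold changes were 0.00, -0.06 and -0.06 in the same order, beside 0.01 for all genes each time. Nedd9, the second Cas protein, showed the widest swing. It averaged 4.90 FPKM ± 0.543 in the controls, 11.5 ± 1.29 at 500 mOsm and 3.81 ± 0.525 at 600 mOsm (SD, n = 3). Its log2 fold change was 1.23 at 500 mOsm (adjusted p = 2.09e-06 by edgeR), -0.35 at 600 mOsm (adjusted p = 0.0283) and -1.58 between the intensities (adjusted p = 3.89e-07). Bcar1 and Nedd9 thus both rose at 500 mOsm and were both lower at 600 than at 500 mOsm, while at 600 mOsm against iso-osmolar medium Bcar1 was higher and Nedd9 lower. Bcar1 supplied 97.8%, 96.3% and 98.5% of the summed FPKM of the Cas family in the controls, at 500 and at 600 mOsm.

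In the talin family, Tln2 was higher at 500 mOsm by 0.19 on the log2 scale (adjusted p = 0.00852 by edgeR) and lower at 600 than at 500 mOsm by a log2 fold change of -0.23 (adjusted p = 0.00276), and Tln1 made up 91.2% to 92.6% of the family's FPKM on average. The filamin gene Flnc passed the test in no comparison. Tgfb1i1 (Hic-5), the closest relative of paxillin, was lower at both intensities (-0.48 with adjusted p = 0.000156 at 500 mOsm, and -0.46 with adjusted p = 0.000229 at 600 mOsm), and the share of Pxn in the family's FPKM was 74.7% ± 0.875, 79.3% ± 1.3 and 76.1% ± 0.708. Among relatives of zyxin, Trip6 was higher at 600 mOsm (0.33, adjusted p = 0.0271, with libraries that overlapped) and Limd1 lower at 500 mOsm (-0.14, adjusted p = 0.0491), while Ajuba and Wtip did not pass. Zyx made up 53.0% ± 0.466 of the FPKM of its family in the controls, 45.7% ± 1.92 at 500 mOsm and 44.2% ± 0.451 at 600 mOsm, and Trip6 made up 19.2%, 24.3% and 26.5%. Ctnnal1, a relative of vinculin, was higher at 500 mOsm (0.30, adjusted p = 0.0102), and Ctnna1, Actn3 and Ptk2b passed in no comparison. Ctnna2, Ctnna3, Actn2, Lpxn, Efs and Cass4 were counted at 0 or below 0.5 CPM on average and were not tested. Actn1 and Actn4 together held nearly all α-actinin FPKM, and Actn2 and Actn3, the muscle forms, held at most 0.211% in any library.

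A further 89 listed adhesion components were grouped by role. Of these, 87 had a row and 82 were tested. At 500 mOsm 20 were higher and 13 lower than in iso-osmolar medium (24.4% and 15.9% of 82, beside 13.2% and 14.8% of all genes), with a median log2 fold change of 0.03. At 600 mOsm 9 were higher and 32 lower (11% and 39% of 82, beside 15.1% and 20.0% of all genes) against iso-osmolar medium, with a median of -0.07. Between the intensities 5 were higher and 32 lower at 600 mOsm, with a median of -0.12, where the shares over all genes were 11.9% and 17.2% and the median 0.01. Taking the paralogs and these components together, 5 of 95 genes were higher and 34 lower between the intensities. These made 5.26% and 35.8% of the 95, beside 11.9% and 17.2% of all genes. With gene length corrected, 13 of these 95 were higher and 25 lower, and with GC content corrected as well 17 and 25 were. Over all genes the calls as higher also rose, from 1560 to 2678 and 3603, and those as lower went from 2250 to 1511 and 1757. The added calls as higher were thus not confined to adhesion genes.

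**Figure D3:**
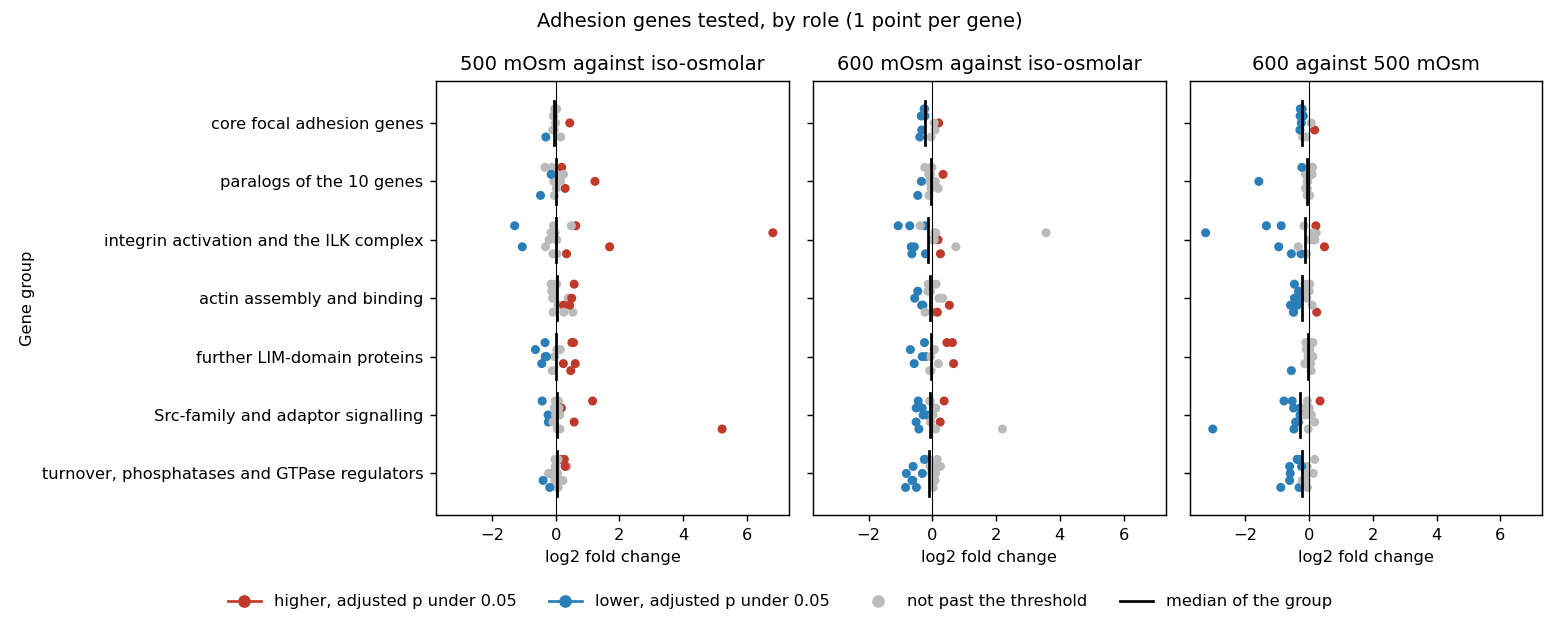
Log2 fold change of each adhesion gene tested (1 point per gene, horizontal axis), by role on the vertical axis and with 1 panel per comparison, where colour marks direction for genes past the threshold and the black line marks the median of the group. Points to the left of 0 outnumber those to the right among called genes in both comparisons that involve 600 mOsm, and the points above 5 at 500 mOsm are Kank4 and Grb7, whose iso-osmolar counts lay at or under the floor, so that their fitted fold changes are no bound.

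By role, the signalling adaptors around Src had 9 of 17 genes lower at 600 than at 500 mOsm and 1 higher (Nck1, an SH2-SH3 adaptor, 0.34, adjusted p = 0.0279 by edgeR). These made 52.9% and 5.88% of the 17, beside 17.2% and 11.9% of all genes. Against iso-osmolar medium 7 were lower and 2 higher at 600 mOsm (41.2% and 11.8%, beside 20.0% and 15.1%). Grb2, the adaptor that links phosphorylated focal adhesion kinase to Ras, averaged 65.0 FPKM ± 1.49 in the controls, 61.1 ± 1.25 at 500 mOsm and 45.0 ± 1.68 at 600 mOsm. It was lower at 600 mOsm than in the controls (-0.51, adjusted p = 3.13e-06) and than at 500 mOsm (-0.42, adjusted p = 1.7e-05). Bcar3, a partner of p130Cas, went from 1.14 FPKM ± 0.117 to 2.54 ± 0.186 at 500 mOsm (1.16, adjusted p = 1.05e-05) and stood at 1.45 ± 0.0633 at 600 mOsm.
Of the turnover and GTPase regulators, 9 of 19 (47.4%) were lower at 600 mOsm in each comparison. The shares of all genes were 20.0% against iso-osmolar medium and 17.2% between the intensities. The Arf GTPase-activating gene Asap1 averaged 50.1 FPKM ± 1.09, 49.1 ± 3.52 and 31.7 ± 2.65 in the 3 media, and it was lower at 600 than at 500 mOsm (-0.61, adjusted p = 6.86e-06). The integrin activation and ILK group had 7 of 16 lower and 2 higher at 600 mOsm against iso-osmolar medium (43.8% and 12.5%, beside 20.0% and 15.1% of all genes). Between the intensities 6 were lower and 3 higher (37.5% and 18.8%, beside 17.2% and 11.9%). Parvb, which encodes β-parvin, fell from 28.3 FPKM ± 1.09 to 11.6 ± 0.738 at 500 mOsm and 13.3 ± 0.213 at 600 mOsm (-1.28 with adjusted p = 1.1e-08, and -1.07 with adjusted p = 7.4e-08). Tns3, a tensin that binds integrin tails, was at 71.0 FPKM ± 2.13, 66.8 ± 0.41 and 44.8 ± 2.52, and was lower at 600 mOsm than in the controls (-0.64, adjusted p = 3.51e-07) and than at 500 mOsm (-0.56, adjusted p = 1.35e-06). Kank1, a talin-binding protein gene of low level, was lower at 500 mOsm (-1.05, adjusted p = 0.00023). Ilk itself, the integrin-linked kinase, was listed at 0.165 to 0.312 CPM on average and was not tested, and neither were Fermt1, Parvg, Arhgef6 and Arhgap26. In the same group Parva and Lims1 averaged 27.0 and 11.4 FPKM in the controls, and Parvg and Lims2 0.048 and 0.201 FPKM. Whether the low value of Ilk lies with the cells or with the way reads were assigned was not tested, so absence of its transcript is not shown. Tns2 and Diaph1 were not analysed here.

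The actin-binding group had 4 of 16 genes higher and 0 lower at 500 mOsm (25% and 0%, beside 13.2% and 14.8% of all genes). At 600 mOsm against iso-osmolar medium 4 were lower and 2 higher (25% and 12.5%, beside 20.0% and 15.1%). Between the intensities 7 were lower and 1 higher (43.8% and 6.25%, beside 17.2% and 11.9%). Lasp1, a LIM and SH3 protein that binds zyxin, averaged 93.3 FPKM ± 4.26 in the controls, 139 ± 8.39 at 500 mOsm and 99.7 ± 3.33 at 600 mOsm, a rise of 0.58 at 500 mOsm (adjusted p = 9.81e-06 by edgeR). Sorbs3 (vinexin), a partner of vinculin, was at 31.3 FPKM ± 2.19 in iso-osmolar medium and 44.6 ± 2.54 at 600 mOsm (0.53, adjusted p = 6.16e-05). Pfn1, the profilin that feeds actin monomers to growing filaments, was higher at 600 than at 500 mOsm (0.24, adjusted p = 0.00406). The further LIM-domain proteins moved in both directions, with 5 of 14 higher and 5 lower at 500 mOsm (35.7% each, beside 13.2% and 14.8% of all genes). At 600 mOsm against iso-osmolar medium 3 were higher and 5 lower (21.4% and 35.7%, beside 15.1% and 20.0%). Pdlim2 was higher at both intensities (0.51 with adjusted p = 2.18e-05, and 0.63 with adjusted p = 4.35e-06), as was Ablim1 (0.56 with adjusted p = 0.000109, and 0.46 with adjusted p = 0.000583), and Pdlim5 was lower at both (-0.63 with adjusted p = 3.65e-05, and -0.69 with adjusted p = 2.12e-05). Between the intensities 1 of the 14 (7.14%) passed the test, as lower at 600 mOsm, beside 29.1% of all genes in either direction.

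Actn1 had the smallest p of the 10 genes between the intensities, so genes most like it over the 9 libraries were taken by Pearson's r of log2 CPM. Among these were Zfp652 (r = 0.9961), Zzef1 (0.9945), Chd4 (0.9932) and Atxn1l (0.993), with n = 9 libraries that share 3 treatments and their own depth. These 4 had larger differences than Actn1 at 600 mOsm, with log2 fold changes against iso-osmolar medium of -0.79, -0.58, -0.51 and -0.73 beside -0.26 for Actn1. None encodes a focal adhesion component in the lists used here.

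The processing that moved these values most was a correction for gene length and GC content in each library. The fits of this correction and of that for length alone included a constant per library. Both therefore also reset the overall scaling of each library, to the mean log ratio of the genes fitted. The 10 genes are long and rich in counts: their lengths run from 3102 to 15647 bases, against a median of 3020 bases over all genes tested, and 7 of the 10 have a GC content above the median of 50.2%. Between the intensities all 10 genes moved upwards under both corrections, by the most for Lpp and for Tln1 and Flna, the genes of 8393 and 8456 bases. The median of all genes moved upwards as well, from 0.01 to 0.09 under each, so part of these moves was common to all genes. With length corrected, Zyx went from -0.09 to -0.02 and Bcar1 from -0.25 to -0.18, moves no larger than that of the median. Under the correction for length and GC together, Zyx at 500 mOsm was -0.47 and Bcar1 was 0.25, and both stayed past the threshold. Vcl, Actn1, Actn4, Pxn and Zyx stayed lower at 600 mOsm than in the controls, at the same threshold, under every normalization, filter, tool, correction and left-out library tried, although the value for Vcl shrank to -0.15 with length and GC content corrected.

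**Figure D4:**
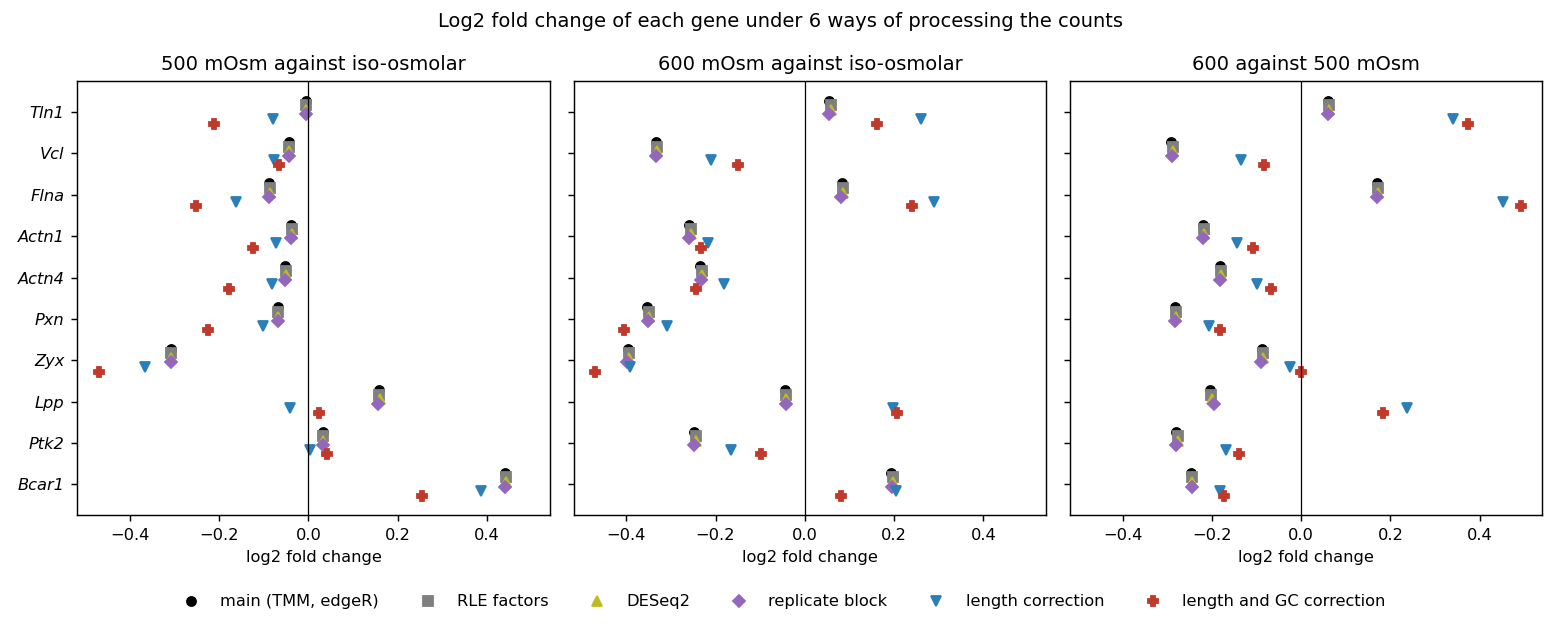
Log2 fold change of each gene (horizontal axis) in the 3 comparisons under 6 ways of processing the counts, with 1 symbol per setting. The other normalization, DESeq2 and the replicate block lie on the main value, whereas the corrections for gene length and for length with GC content move all 10 genes to the right between the intensities, with Tln1, Flna and Lpp moving furthest. The median of all genes, not drawn, also moved to the right there, from 0.01 to 0.09.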

How the data were processed

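Fragmented poly-A RNA of the 9 libraries was converted to cDNA with random hexamer primers. The submitters' processing notes name CASAVA 1.8, STAR and build mm10, and the counting tool and its use of strand are not given in the sources used here. The authors deposited 1 table of 35275 genes with raw read counts per gene and library. The same deposited table holds FPKM, made by the authors from the counts with the gene length and the library total. It also holds the authors' log2 fold changes, p-values and normalized signal values for each comparison, which were not used.

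Here, counts were tested with edgeR 4.0.16 in R 4.3.3 (TMM, filterByExpr, quasi-likelihood test, treatment as the only factor, all 9 libraries in 1 fit), with Benjamini-Hochberg adjustment over 13082 genes and a threshold of 0.05. SEs are the log2 fold change divided by the square root of F. The common biological coefficient of variation was 0.0756. FPKM served to compare levels between genes. The scripts were tested on simulated data. The chi-square statistic between libraries of a group was 5.04 to 15.1 per degree of freedom, so no library was a duplicate of another of its group. Libraries of different groups were not compared in this way. GC content is that of the longest transcript of the GENCODE mm10 annotation and was known for 99.5% of genes tested.

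The genes and lists were chosen with earlier results of these data known. Named in the text are the 10 genes, the tested paralogs, the 3 other adhesion genes with the smallest p per direction and comparison among those past the threshold, genes among the 5 most like Actn1, and the osmolyte and cell type marker genes; genes given without a test value, and Kank4 and Grb7, are named to account for their list. The alternatives were RLE factors, library size alone, other count filters (none, or at least 10 counts in every library), DESeq2 1.42.0, a fit of the groups compared without the third, a block for the replicate number, minimum fold or stricter p, limma 3.58.1 on log2(FPKM + 1) or log2(FPKM + 0.1), spline corrections (5 degrees of freedom) for gene length or length with GC content, and each library left out. All 19 markers with a row are given as summed lists. Adgre1 was not analysed here. Some genes that meet this rule are not reported here.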

Additional observations from a re-analysis of the deposited data

Results flagged for a closer look

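Flna was flagged because its libraries moved in opposite directions from iso-osmolar medium at the 2 intensities, and the difference itself was tested. Against iso-osmolar medium its log2 fold change was -0.09 at 500 mOsm and 0.08 at 600 mOsm, neither of which passed the test, and the difference between them was 0.17 (adjusted p = 0.00485 by edgeR, every 600 mOsm library above every 500 mOsm library). It kept its direction and its call in all alternatives except a minimum log2 fold change of 0.5, and it stood at 0.49 with gene length and GC content corrected.

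Ptk2 was flagged in the same way, with 0.03 at 500 mOsm, which did not pass, and -0.25 at 600 mOsm, which did. The difference was -0.28 (adjusted p = 0.00743 by edgeR, with every 600 mOsm library below every 500 mOsm library). That difference was -0.17 with gene length corrected, which did not pass (adjusted p = 0.0562 by edgeR), and -0.14 with length and GC content corrected (adjusted p = 0.0432), and the value at 600 mOsm lost its call under both corrections (-0.17 and -0.10, adjusted p = 0.0634 and 0.157). Its value at 500 mOsm was -0.01 without replicate 1 of that group, so its opposite sign rests on that library.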

How the results depend on the processing

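Of the values of the 16 differences past the threshold among the 10 genes, 13 of 176 lost the call under settings other than a left-out library, a minimum fold or a stricter p, and 14 of 144 when a library was left out, and 0 reversed. Of 280 values of differences that had not passed, 11 became past the threshold and 13 reversed. The reversals were Tln1 at 500 mOsm (0.0077 with at least 10 counts in every library, and -0.029 to 0.0156 with a library left out, positive without 500 mOsm replicate 3), Vcl at 500 mOsm (-0.0774 to 0.0049, positive without 500 mOsm replicate 2), Ptk2 at 500 mOsm (-0.0148 to 0.0615, negative without 500 mOsm replicate 1) and Lpp. Lpp at 500 mOsm was -0.0405 with length corrected and -0.0017 to 0.2608 with a library left out, negative without 500 mOsm replicate 1. Lpp at 600 mOsm against iso-osmolar medium was 0.20 and 0.21 with length and with length and GC content corrected, and -0.1914 to 0.0598 with a library left out, positive without iso-osmolar replicate 3, 600 mOsm replicate 1 or 600 mOsm replicate 3. Lpp between the intensities was 0.24 and 0.18 under the same corrections.

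With length corrected, the genes higher were 3 at 600 mOsm against iso-osmolar medium and 3 between the intensities, those lower between the intensities were 1, and 13 paralogs and other components were higher between the intensities. With GC content also corrected, 6 of the 10 genes and 32 of the wider list were lower at 500 mOsm, 3 of the 10 were higher in each comparison of 600 mOsm, and 17 of the wider list were higher between the intensities. The share of higher among all calls moved between the intensities from 40.9% to 63.9% and 67.2%, and at 500 mOsm from 47.2% to 33.4% and 31%, and all genes called moved to 2678 and 3603 higher between the intensities and 3529 lower at 500 mOsm. Both corrections also reset the overall scaling of each library, and how much of these moves came from that was not tested. A minimum of 0.5 for the size of the log2 fold change, besides the adjusted p, left 0 of the 10 genes called in each direction and comparison. Without it 2, 7 and 7 were called, and edgeR gave 3, 7 and 7 at an unadjusted p under 0.05. The minimum left of the wider list 12 higher and 3 lower at 500 mOsm, 3 and 16 at 600 mOsm and 0 and 15 between the intensities. Of all genes it left 1011 and 1039, 538 and 1282, and 490 and 1225. An adjusted p under 0.01 left 0 of the 10 genes higher at 600 mOsm against iso-osmolar medium (the value for Bcar1 was 0.0432), 4 and 1 of the wider list higher at 600 mOsm and between the intensities, and 1129, 995 and 790 of all genes higher.

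The wider list higher between the intensities numbered 3 with library size alone or DESeq2 and 2 with only the groups compared, the block or either limma fit, in place of 5. With each library left out it ranged from 1 to 5, that higher at 600 mOsm against iso-osmolar medium from 4 to 10, and the count of the 10 genes higher there from 0 to 1. No pairing of the libraries by replicate number was seen: deviations of same-numbered libraries correlated by -0.225 on average over 9 pairs (-0.626 to 0.542) and those of others by 0.115 over 18 pairs (-0.317 to 0.562), on 9393 genes. The ranges overlapped widely, so these values do not show that pairing was absent. With the number as a block, 0 of the 10 genes were higher at 600 mOsm (Bcar1 0.20, adjusted p = 0.0835 by edgeR), the call for Actn4 between the intensities was lost (-0.18, adjusted p = 0.0711), and no other call among the 10 genes changed. Calls of all genes under the block numbered 1153 higher and 1936 lower between the intensities. The SE did not follow depth alone: Ptk2, the gene of the fewest counts, had SEs of 0.0665 to 0.0672, below the 0.0693 to 0.0697 of Pxn.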

Other observations

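Within a group, the place of replicate 2 in the order of the libraries differed with base composition for most of these genes. Among the 7 genes with a GC content above the median of 50.2%, 500 mOsm replicate 2 was the highest of its group for 5, and among the 3 genes below it (Vcl, Ptk2 and Lpp) the same library was the lowest for all 3. At 600 mOsm, replicate 2 was the lowest for 6 of the 7 genes and the highest for all 3 of the others. In iso-osmolar medium, replicate 2 was the highest for 5 of the 7 and the lowest for 2 of the 3. Exceptions were Flna and Actn1, lowest in replicate 2 at 500 mOsm, and Actn1, highest in it at 600 mOsm. The highest library exceeded the lowest by as little as 1.02-fold, as for Flna at 500 mOsm. These counts were read after the values were seen, for 1 replicate number, and their cause was not tested.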
